A study of Mus musculus with 24 samples.

Results

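In the left ventricle of mice after a sham operation, 33 transcripts with higher counts at 45 min than at 0 min were examined, of 63758 transcripts listed in the data. They were chosen by measured values. Of the 1209 transcripts that the study had called changed over time, 20 members belonged to the study's co-expression module M[1] of 27 transcripts. The other 13 were among the 300 transcripts in no module and were taken because their mean level at 45 min was at least 1 CPM (counts per 1000000 counts of the library) and their log2 ratio of mean CPM to 0 min, with 0.5 added to both means, was at least 0.8. A further 9 genes were left out by name, 7 of them in M[1]. Just inside the ratio limit stood Ifi205 at 0.82, Nts at 0.83 and AI607873 at 0.84, and BC034910 had a mean of 1.0005 CPM. Just outside stood Nt5e, with a ratio of 0.81 but a mean of 0.881 CPM, AK162363 at 0.79 and D730005E14Rik at 0.78. Because the 45 min and 0 min samples chose the members, the values of that comparison are a description.

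The samples came from 24 male C57BL/6J mice aged 8 to 12 weeks, 8 for each of 3 time points, and every mouse gave 1 library. The paper names different surgeons and different pools of library construction, and reports that the samples clustered by neither. The sample labels used here do not assign them to mice, so the fits could not hold them. All mice, those of the 0 min group included, were anesthetized with pentobarbital, received buprenorphine, were ventilated and had a left thoracotomy, and a suture was passed around the left anterior descending coronary artery and never tied. In the 0 min group the suture was withdrawn at once, in the 45 min group after 45 min, and in the 24 h group the chest was closed after 45 min and the heart was taken at 24 h. No group was left without anesthesia or surgery, so the 0 min values are those of hearts already operated. The tissue was bulk myocardium, in which fewer cells of a type and less RNA per cell cannot be told apart.

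Immediate early genes are transcribed within minutes of a stimulus from factors that the cell already holds, and many of them encode transcription factors such as Fos, Junb and Egr1. Their messages are short-lived, so levels fall again soon after transcription stops. The same early window also holds genes for inhibitors of signalling, such as Nfkbia, which encodes the inhibitor that keeps NF-kB in the cytoplasm, and for stress proteins such as those of the Gadd45 family, which act in growth arrest and p38 signalling. In the heart such genes are known to respond to stretch, hormones and injury.

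Total counts per library ranged from 9887957 to 14091629 and transcripts with at least 1 count from 12972 to 18865. At 45 min, replicates 6, 7 and 8 had the fewest, with 13743, 14353 and 12972. The share of the transcript uc012ath.2 ran from 0.997% to 35.2%, the highest being in replicate 1 at 45 min. As a check of the tissue, of the 14 cardiomyocyte markers listed symbols were at hand for Actc1 and Tpm1 only, since symbols were taken for the 1209 transcripts of the study's list. Actc1 (cardiac actin) had median CPM values of 14600, 15300 and 5930 over the 3 time points and was lower at 24 h, with a log2 fold change of -1.38 from 0 min (edgeR adjusted p = 1.07e-05). The 1 listed transcript of Tpm1 (tropomyosin) had medians of 10.1, 2.28 and 9.21 CPM and was lower at 45 min, at -2.01 (edgeR adjusted p = 7.29e-05). Other transcripts of Tpm1 were not read, so these values are not the level of the gene. Both markers were on the study's list of changed transcripts, so their changes are not independent evidence.

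Of the 33 members, 31 passed the filter on low counts and AK031392 and BC034910 did not. With edgeR's quasi-likelihood test and an adjusted p threshold of 0.05, 23 of the 31 were higher at 45 min than at 0 min and none was lower. Over all 8940 transcripts tested the share called higher was 0.481% and the share called lower 0.246%, shares that say nothing about the members here, since this comparison chose them. The members had a median log2 fold change of 1.26, from 0.81 for Fas to 2.59 for Gadd45b, against 0.01 over all transcripts tested. Among the 8 members that did not pass were Nr4a3, Mt1, Egr1, Junb, AK030443, Nts and Cebpb. When each of the 24 mice was left out in turn, the call was lost in 19 fits for Lnx1, in 11 for Fas, in 9 for Timp4, in 5 for Gatsl3, in 4 for AI607873 and, for Fos, without 45 min replicate 7. Junb passed without 0 min replicate 5 or 45 min replicate 4, Mt1 without 45 min replicate 4, Egr1 without 0 min replicate 6 and AK030443 without 45 min replicate 6. In 10 members all 8 mice at 45 min lay above all 8 at 0 min, which held for 0.235% of all transcripts tested. These were Gadd45b, Slc10a6, Tmem252, Rnd1, Adh1, Lnx1, Mylip, Trib1, Kcna5 and Sema7a. With CPM by library total in place of TMM scaling factors, the number fell to 4, against 0.123% of all transcripts.

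At 24 h the members parted. Against 0 min, 7 of the 31 were higher at 24 h, among them Slc10a6, Map3k6, Adh1, Mylip, AI607873 and Ifi205, against 4.44% of all transcripts tested, and Egr1 alone was lower, against 3.24% of all. The list and the module were made by the study from all 3 time points, and the 13 members in no module were chosen by a ratio to the same 0 min mice, so these counts are a description and not independent evidence of a pattern over time. The split between M[1] and the other members is partly fixed in the same way, since the module groups transcripts by co-expression over all samples. Of the members in no module 6 of 11 tested were higher at 24 h, with a median log2 fold change of 0.84, and of the members in M[1] 1 of 20 was higher, with a median of 0.22, while the median over all transcripts tested was 0.0033. Against 45 min, 17 members were lower at 24 h, where 4.51% of all transcripts were lower, and 0 were higher, where 4.59% of all were higher. These were 14 of the 20 in M[1] and 3 of the 11 in no module, the latter being Nr4a3, Tiparp and Nts. The calls of Rnd1, Cebpb and Sema7a were lost in 8, 8 and 5 of the fits that left out 1 mouse. In 4 members, Chac1, Egr1, Trib1 and Kcna5, every mouse at 24 h lay below every mouse at 45 min, as in 0.727% of all transcripts. The comparison of 24 h with 45 min uses the same 45 min mice that chose the members and is given as a description.

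**Figure D1:**
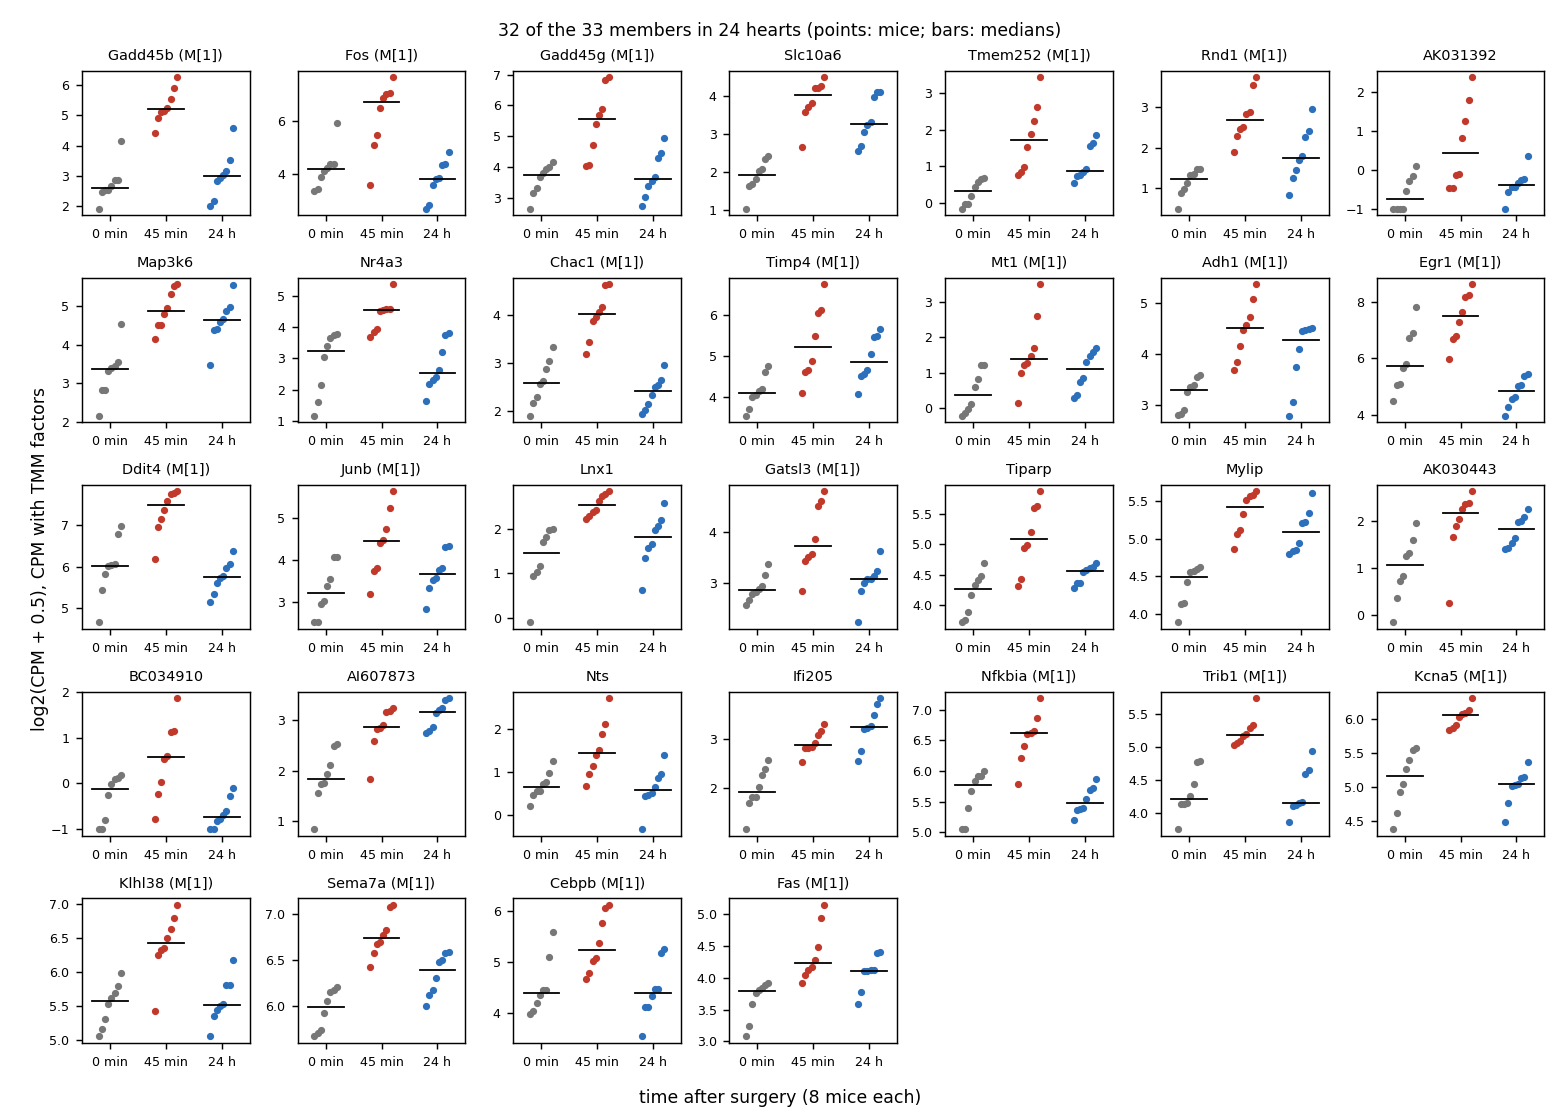
The level of 32 of the 33 members, as log2(CPM + 0.5) with TMM factors on the y axis, in each of 24 mice over the 3 time points. Points are mice sorted by value, bars are medians, and M[1] marks the 20 members of that module. Most members shown have their highest median at 45 min, while Ifi205 and AI607873 have their highest median at 24 h.

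**Figure D2:**
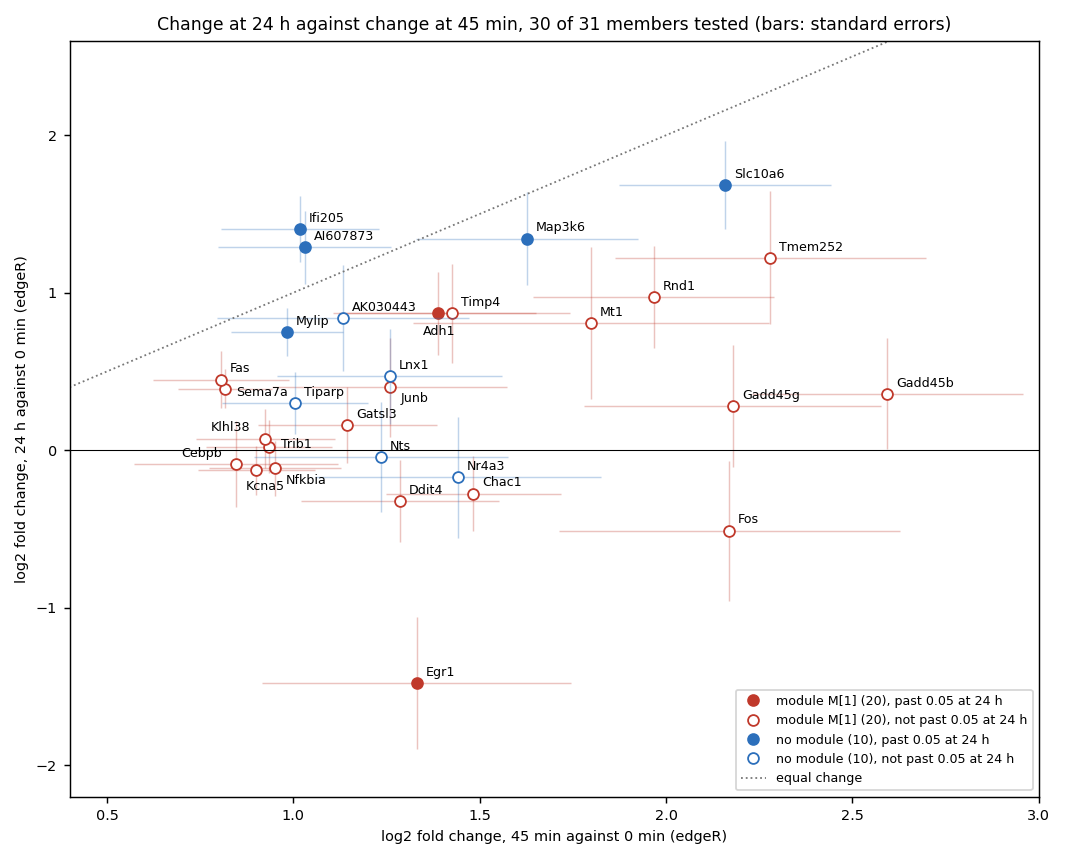
The edgeR log2 fold change at 24 h against 0 min (y axis) beside that at 45 min against 0 min (x axis) for 30 of the 31 members tested, with standard errors. Both axes share the 0 min mice. Filled points passed an adjusted p of 0.05 at 24 h: Slc10a6, Map3k6, Ifi205, AI607873, Mylip and Adh1 above 0, and Egr1 below 0.

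The promoters of the members with the highest ratios are shown here to give the start regions of the genes that stood highest at 45 min beside 0 min, with those of Nfkbia and Mt1 added for their known response elements. The RefSeq promoter table, on build GRCm38.p6 (mm10), held 25 of the 33 members. Among those it did not hold were Rnd1, AK031392, Egr1, AK030443, BC034910, Trib1 and Klhl38. Each sequence runs 5′ to 3′ on the strand of its gene, from 250 bases before the start to 30 bases after it. They lie at chr10:80929841-80930120 (plus strand), chr12:85473640-85473919 (plus), chr13:51846425-51846704 (plus), chr5:103629374-103629653 (minus), chr19:24673758-24674037 (plus), chr4:133240568-133240847 (plus), chr12:55492618-55492897 (minus) and chr8:94178839-94179118 (plus). Capitals mark matches to any motif searched except the GC box.
Gadd45b: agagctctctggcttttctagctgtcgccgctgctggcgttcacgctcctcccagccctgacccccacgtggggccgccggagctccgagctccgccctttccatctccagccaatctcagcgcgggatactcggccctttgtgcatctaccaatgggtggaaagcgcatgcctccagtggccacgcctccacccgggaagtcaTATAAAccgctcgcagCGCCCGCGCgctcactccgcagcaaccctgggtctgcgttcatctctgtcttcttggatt
Fos: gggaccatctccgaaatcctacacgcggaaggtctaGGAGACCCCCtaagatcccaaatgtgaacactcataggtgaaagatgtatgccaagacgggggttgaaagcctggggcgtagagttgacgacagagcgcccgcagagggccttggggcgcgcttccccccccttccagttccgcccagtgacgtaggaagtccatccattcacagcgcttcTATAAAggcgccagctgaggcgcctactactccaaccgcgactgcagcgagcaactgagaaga
Gadd45g: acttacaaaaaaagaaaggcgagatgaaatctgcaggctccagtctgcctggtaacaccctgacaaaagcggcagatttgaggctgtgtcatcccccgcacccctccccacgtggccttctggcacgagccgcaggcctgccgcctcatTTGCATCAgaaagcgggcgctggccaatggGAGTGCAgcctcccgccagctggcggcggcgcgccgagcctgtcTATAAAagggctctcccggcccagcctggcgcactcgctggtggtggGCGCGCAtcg
Slc10a6: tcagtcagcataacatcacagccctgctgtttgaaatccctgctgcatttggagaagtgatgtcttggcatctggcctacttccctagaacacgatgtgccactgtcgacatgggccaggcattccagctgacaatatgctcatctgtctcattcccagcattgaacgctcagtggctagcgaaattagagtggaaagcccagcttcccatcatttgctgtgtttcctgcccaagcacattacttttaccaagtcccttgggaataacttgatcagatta
Tmem252: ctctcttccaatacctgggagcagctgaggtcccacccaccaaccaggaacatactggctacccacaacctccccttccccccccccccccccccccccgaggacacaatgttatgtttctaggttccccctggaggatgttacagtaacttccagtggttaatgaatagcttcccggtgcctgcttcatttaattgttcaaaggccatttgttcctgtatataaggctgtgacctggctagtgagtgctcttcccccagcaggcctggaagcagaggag
Map3k6: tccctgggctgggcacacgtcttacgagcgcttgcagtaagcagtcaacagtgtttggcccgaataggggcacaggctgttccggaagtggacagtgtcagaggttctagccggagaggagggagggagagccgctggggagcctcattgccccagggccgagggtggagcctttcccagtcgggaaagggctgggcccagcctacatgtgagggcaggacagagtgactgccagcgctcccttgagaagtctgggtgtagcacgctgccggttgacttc
Nfkbia: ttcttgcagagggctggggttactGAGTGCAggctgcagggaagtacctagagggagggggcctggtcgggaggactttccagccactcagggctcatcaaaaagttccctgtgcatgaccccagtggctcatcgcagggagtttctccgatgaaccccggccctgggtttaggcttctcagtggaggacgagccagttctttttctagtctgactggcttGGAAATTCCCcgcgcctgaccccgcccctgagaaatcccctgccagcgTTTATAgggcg
Mt1: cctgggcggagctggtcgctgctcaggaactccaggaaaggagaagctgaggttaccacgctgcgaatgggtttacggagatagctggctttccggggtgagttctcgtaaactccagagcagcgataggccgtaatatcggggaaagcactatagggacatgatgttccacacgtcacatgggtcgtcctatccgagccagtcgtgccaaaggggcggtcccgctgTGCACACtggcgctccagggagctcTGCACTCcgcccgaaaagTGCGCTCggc

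Motifs were searched on both strands over 300 bases of each promoter, the 50 bases after the start included. The TATA box TATAAA occurred in 8 of the 25 promoters, 32% against 13.6% of all 32851 promoters. It stood between positions -46 and -22 from the start in Gadd45b, Fos, Gadd45g and Mylip, and after the start in Junb, Ifi205, Nfkbia and Cebpb. With only the 250 bases before the start, 4 of the 25 held it, against 12.4% of all. In the Gadd45b sequence above, the capitals before the start are this box and the EGR motif GCGNGGGCG, on the minus strand. This motif was found in no other of the 25 promoters (4% against 5.55% of all). The GC box GGGCGG, which can overlap the EGR motif, was in 13 promoters, 52% against 35.7%.

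The ATF4 core TTGCATCA was found in Gadd45g and Chac1 alone, 8% of the members against 0.895% of all promoters. In Gadd45g it is the run of capitals at positions -101 to -94 from the start. The metal response core TGCACNC was found in Mt1, Gadd45g, Nr4a3, Adh1, Junb and Nfkbia, 24% against 12.6%, and its variant TGCGCNC in Mt1, Gadd45g and Ddit4, 12% against 15.4%. Mt1 held 2 matches to the first and 1 to the second between positions -23 and 27. The NF-kB motif was in Fos and Nfkbia, 8% against 4.51%. Its match in Nfkbia lay at positions -29 to -20.

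AP-1 sites (TGANTCA), which bind Fos and Jun proteins, were in the promoters of Fas, Lnx1 and Nts, 12% against 7.81%. The STAT motif TTCNNNGAA was in Fas, 4% against 8.3%. None of the 25 promoters held an exact match to the cyclic AMP response element TGACGTCA, present in 1.79% of all promoters. The same was true of the serum response (CArG) box, present in 1.63%. Variant sites and sites further upstream were not searched, and Egr1 had no promoter in the table, so members may still carry such elements. The Slc10a6, Tmem252 and Map3k6 sequences held no match to any of these motifs and carry no capitals. With 25 promoters, 1 promoter is 4%, and the matches are a description of letters in this window.

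**Figure D3:**
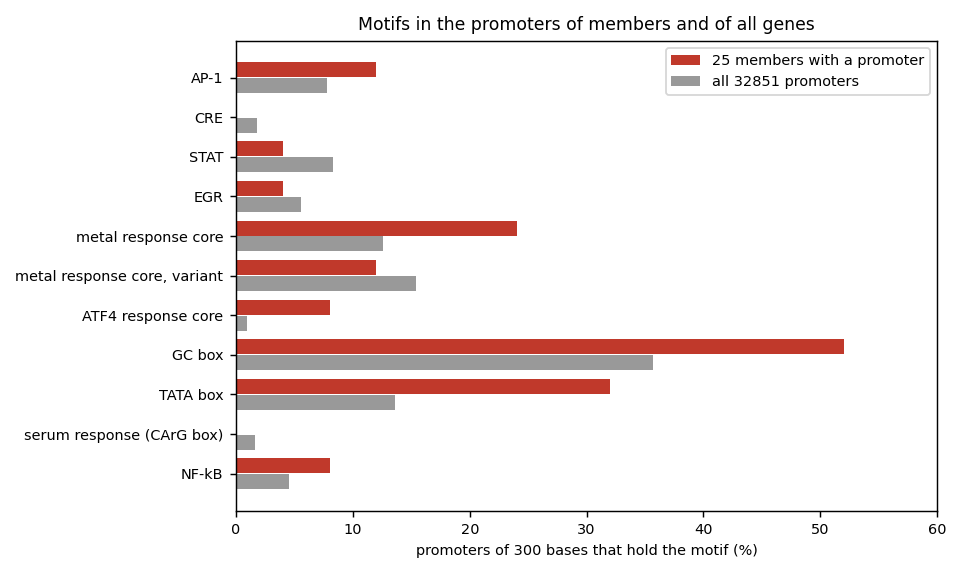
The percentage of promoters of 300 bases that hold each motif on either strand (x axis), for the 25 members found in the promoter table (red) and for all 32851 promoters (gray). The bars start at 0. The TATA box was in 32% of these members and 13.6% of all promoters, and 2 motifs were in none of the 25.

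Among the members that encode transcription factors, Fos, a subunit of AP-1, was between 9.61 and 59.7 CPM at 0 min (median 17.4), between 11.4 and 200.4 at 45 min (median 103) and between 5.89 and 27.6 at 24 h (median 13.5). At 45 min 5 of the 8 mice lay above the highest at 0 min, and replicate 2 at 11.4 CPM lay inside the 0 min range. Its log2 fold change was 2.17 at 45 min and -0.51 ± 0.44 (SE) at 24 h, which did not pass the test (edgeR adjusted p = 0.605). Junb, another AP-1 subunit, had medians of 8.75, 21.1 and 12.2 CPM in order of time. The 45 min values from 8.59 to 48.9 CPM overlapped the 0 min values from 5.22 to 16.2, and the 24 h values from 6.62 to 19.6 overlapped both.

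Egr1, a zinc finger factor, was between 22.0 and 225 CPM at 0 min (median 52.1), between 61.9 and 394 at 45 min (median 178) and between 15.2 and 43.4 at 24 h (median 28.0). Of the 8 mice at 45 min 5 lay inside the 0 min range, and all 24 h mice were below all 45 min mice. It was the only member lower at 24 h than at 0 min, with a log2 fold change of -1.48 ± 0.42 (edgeR adjusted p = 0.0265). That call was lost in 5 of the 24 fits that left out 1 mouse, those without 0 min replicate 1 (adjusted p = 0.056), 4 (0.0508) or 6 (0.111) and without 24 h replicate 2 (0.0528) or 5 (0.0548).

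Nr4a3, an orphan nuclear receptor, was between 1.75 and 13.3 CPM at 0 min (median 8.92), between 12.4 and 41.1 at 45 min (median 22.8) and between 2.59 and 13.4 at 24 h (median 5.28). At 45 min 7 of 8 mice were above every 0 min mouse. Cebpb, a leucine zipper factor of the acute phase response, had medians of 20.7, 37.5 and 20.7 CPM, and only 3 of its 45 min mice exceeded the highest 0 min mouse at 47.6 CPM. Tiparp, an ADP-ribosyltransferase induced by the aryl hydrocarbon receptor, was between 12.7 and 25.5 CPM at 0 min (median 18.7), between 19.4 and 57.9 at 45 min (median 33.6) and between 19.1 and 25.5 at 24 h (median 23.2). The 24 h mice lay in the upper part of the 0 min range, 1 of them just above it, with a log2 fold change of 0.30 ± 0.19 (edgeR adjusted p = 0.447).

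Among the stress genes, Gadd45b, of the growth arrest family, was between 3.29 and 17.5 CPM at 0 min (median 5.59), between 20.9 and 76.4 at 45 min (median 36.3) and between 3.47 and 23.5 at 24 h (median 7.44). All 45 min mice were above all 0 min mice, 6.04-fold by the fit. At 24 h its log2 fold change was 0.36 ± 0.35 (edgeR adjusted p = 0.658). Gadd45g, of the same family, was between 5.80 and 17.6 CPM at 0 min (median 12.9), between 15.8 and 120.4 at 45 min (median 46.4) and between 6.18 and 30.3 at 24 h (median 11.9). Replicates 7 and 2 marked the ends of its 45 min range, and 6 of the 8 mice lay above the 0 min range. Without the 3 mice with the fewest transcripts detected its log2 fold change at 45 min was 1.36 in place of 2.18.

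Chac1 encodes an enzyme that degrades glutathione and is a target of ATF4. Its counts were between 3.22 and 9.61 CPM at 0 min (median 5.49), between 8.61 and 24.7 at 45 min (median 15.7) and between 3.31 and 7.24 at 24 h (median 4.80). All 24 h mice were below all 45 min mice, and 7 of the 45 min mice were above all 0 min mice. Ddit4, an inhibitor of the growth kinase complex mTORC1, was between 24.8 and 125 CPM at 0 min (median 64.5), between 72.3 and 225 at 45 min (median 177) and between 34.9 and 82.2 at 24 h (median 53.7). Gatsl3, now named Castor1, an arginine sensor of the same pathway, was between 5.44 and 9.86 CPM at 0 min (median 6.77), between 6.72 and 27.2 at 45 min (median 12.7) and between 4.20 and 11.9 at 24 h (median 7.93). In these 3 genes the 24 h values returned into or below the range of the 0 min mice apart from 1 mouse of Gatsl3, and the log2 fold changes at 24 h were -0.28, -0.32 and 0.16.

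Map3k6, a kinase upstream of the stress-activated MAP kinases, was still higher at 24 h. It was between 3.99 and 22.8 CPM at 0 min (median 9.77), between 17.3 and 47.0 at 45 min (median 28.8) and between 10.6 and 46.0 at 24 h (median 24.3). Replicate 2 at 0 min, at 22.8 CPM, was well above the next mouse at 11.2, and 5 of 8 mice at either later time lay above it. Its 24 h log2 fold change was 1.34 ± 0.30 (edgeR adjusted p = 0.00381).

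Of the inhibitors of signalling, Nfkbia had medians of 53.9, 97.6 and 43.9 CPM in order of time. At 45 min 7 of 8 mice were above the 0 min range, and at 24 h 7 of 8 were below the 45 min range, with a log2 fold change of -0.12 ± 0.17 from 0 min. Trib1, a pseudokinase that brings proteins to a ubiquitin ligase, had medians of 17.9, 35.8 and 17.2 CPM. Its 45 min mice, from 32.2 CPM upward, were above all 0 min mice, the highest of which was at 27.0, and above all 24 h mice, the highest of which was at 30.3.

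The members Mylip, Lnx1 and Klhl38 act in the attachment of ubiquitin or belong to a family with that role. Mylip, a ligase that marks the LDL receptor for degradation, was between 14.3 and 24.3 CPM at 0 min (median 22.0), between 28.5 and 49.1 at 45 min (median 42.4) and between 27.4 and 48.1 at 24 h (median 33.4). Neither later group overlapped the 0 min mice, a separation at 24 h that held for 0.996% of all transcripts tested, and the 24 h log2 fold change was 0.75 ± 0.15 (edgeR adjusted p = 0.00149). Lnx1, a ligase for the Notch inhibitor Numb, was between 0.433 and 3.50 CPM at 0 min (median 2.23), between 4.17 and 6.66 at 45 min (median 5.27) and between 1.05 and 5.43 at 24 h (median 3.02). All its 45 min mice were above all 0 min mice, at counts of 49 to 89 reads, and the 24 h mice overlapped both ranges. Klhl38, of the kelch-like family, had medians of 47.1, 85.4 and 45.1 CPM, and 7 of 8 mice at 45 min were above the 0 min range.

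Secreted and surface proteins formed the next group. Timp4, an inhibitor of matrix metalloproteinases known for its cardiac expression, was between 11.3 and 26.7 CPM at 0 min (median 16.6), between 16.7 and 107 at 45 min (median 36.8) and between 16.3 and 50.1 at 24 h (median 28.7). All 3 ranges overlapped, and without the 3 mice with the fewest transcripts detected its 45 min log2 fold change was 0.64 in place of 1.43.

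Sema7a, a membrane-anchored semaphorin, had medians of 63.2, 106 and 83.6 CPM, with all 45 min mice above all 0 min mice. Its 24 h log2 fold change was 0.39 ± 0.13, just short of the threshold (edgeR adjusted p = 0.0553). Fas, the death receptor, had medians of 13.3, 18.3 and 16.8 CPM and the smallest fitted change at 45 min, 0.81. Without the 3 mice with the fewest transcripts detected this was 0.45 and did not pass, and Cebpb was then lowest at 0.37. Nts, the precursor of the peptide neurotensin, had medians of 1.06, 2.24 and 0.997 CPM with counts of 4 to 59 reads, and its 3 groups overlapped.

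Among membrane proteins and their regulators, Slc10a6, a sodium-dependent transporter of sulfated steroids, was between 1.56 and 4.89 CPM at 0 min (median 3.32), between 5.78 and 22.0 at 45 min (median 15.7) and between 5.33 and 16.7 at 24 h (median 9.14). No mouse of either later group overlapped the 0 min mice. At 24 h it was 3.21-fold higher, a log2 fold change of 1.68 ± 0.28 (edgeR adjusted p = 0.000226). Kcna5, a voltage-gated potassium channel that repolarizes the myocyte, had medians of 35.2, 65.7 and 32.2 CPM. It was the tightest member at 45 min, where the highest mouse, at 78.4 CPM, exceeded the lowest, at 56.5, by 1.39-fold, and all of these were above the highest mice at 0 min (46.8) and at 24 h (40.8).

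Rnd1, a small GTPase that loosens actin stress fibers, was between 0.911 and 2.29 CPM at 0 min (median 1.84), between 3.23 and 12.8 at 45 min (median 5.87) and between 1.29 and 7.22 at 24 h (median 2.85). Tmem252, a transmembrane protein, was between 0.398 and 1.10 CPM at 0 min (median 0.753), between 1.19 and 10.4 at 45 min (median 2.78) and between 0.969 and 3.10 at 24 h (median 1.34). For both, all 45 min mice were above all 0 min mice. At 24 h their log2 fold changes of 0.97 ± 0.32 and 1.22 ± 0.42 did not pass (edgeR adjusted p = 0.0672 and 0.081), though 5 and 7 of the 8 mice lay above the 0 min range. Without the 3 mice of few transcripts at 45 min, both passed at 24 h (edgeR adjusted p = 0.0337 and 0.0212). The call of Tmem252 at 45 min was then lost, with a log2 fold change of 1.46 in place of 2.28.

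Adh1, an alcohol dehydrogenase that also oxidizes retinol, was between 6.49 and 11.6 CPM at 0 min (median 9.38), between 12.4 and 40.7 at 45 min (median 22.3) and between 6.46 and 22.3 at 24 h (median 18.9). It was the only M[1] member higher at 24 h, at 0.87 ± 0.26 on the log2 scale (edgeR adjusted p = 0.0391), with 6 of 8 mice above the 0 min range. That call was lost in 18 of the 24 fits that left out 1 mouse, among them all those without a 0 min mouse, with an adjusted p of up to 0.131. Mt1, a metallothionein that binds zinc, was between 0.365 and 1.82 CPM at 0 min (median 0.796), between 0.595 and 10.8 at 45 min (median 2.10) and between 0.727 and 2.76 at 24 h (median 1.63). At counts of 4 to 104 reads the 3 groups overlapped, and the highest 45 min mouse exceeded the lowest 18.2-fold.

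Ifi205 and AI607873, now named Ifi207, are interferon-inducible genes of 1 family of DNA-binding proteins. In the GENCODE annotation of GRCm38 they lie on the minus strand at chr1:174011998-174031810 and chr1:173723427-173741747. Genes of this cluster resemble each other, so their counts are uncertain where reads match several of them. Ifi205 was between 1.73 and 5.49 CPM at 0 min (median 3.30), between 5.34 and 9.39 at 45 min (median 6.87) and between 5.36 and 13.9 at 24 h (median 9.04). AI607873 was between 1.28 and 5.31 CPM at 0 min (median 3.09), between 3.07 and 8.98 at 45 min (median 6.85) and between 6.21 and 10.4 at 24 h (median 8.50). From 45 min to 24 h their fitted log2 fold changes were 0.39 and 0.26, and neither passed the test. At 24 h the log2 fold changes from 0 min were 1.40 ± 0.21 for Ifi205 (edgeR adjusted p = 6.2e-05) and 1.29 ± 0.23 for AI607873 (edgeR adjusted p = 0.000521), and all 24 h mice of AI607873 were above all 0 min mice.

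Markers of other cell types could be read only for transcripts that the study had already called changed, so their counts are not independent evidence, and over all transcripts tested 4.44% were higher and 3.24% lower at 24 h. Of 11 monocyte and macrophage markers 6 had a symbol, in 7 transcripts, and 5 of the 6 transcripts tested were higher at 24 h than at 0 min. Their summed level was 36.1 to 60.2 CPM at 0 min, 34.5 to 69.2 at 45 min and 72.7 to 216 at 24 h. Both neutrophil markers with a symbol, of 7, were higher at 24 h, with sums of 1.19 to 5.27 CPM at 0 min, 1.39 to 12.8 at 45 min and 6.93 to 46.2 at 24 h. The 4 mesothelial markers tested, of 9, were also higher, with sums of 1.19 to 8.21, 0.495 to 9.16 and 5.80 to 50.7 CPM. The 4 endothelial markers tested, of 12, included 2 that were lower at 24 h, 1 of them, Bcl6b, also at 45 min with a log2 fold change of -0.98 (edgeR adjusted p = 0.000961). Of the 4 fibroblast markers tested, of 9, 1 was higher and 2 lower at 24 h. None of these markers was at 0 in every library. Their part in the 24 h levels of Ifi205, AI607873 and the other members that stayed high was not tested.

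The remaining members are transcripts known by clone names. AK031392 was at most 0.580 CPM at 0 min, between 0.223 and 4.75 at 45 min (median 0.851) and at most 0.789 at 24 h, and its counts never exceeded 48 reads. BC034910 was at most 0.641 CPM at 0 min, between 0.085 and 3.13 at 45 min (median 0.990) and at most 0.429 at 24 h, with 28 reads at most. Both were left out of the test by the filter on low counts, and libraries with 0 reads occurred at 0 min and at 24 h. AK030443 was between 0.391 and 3.40 CPM at 0 min (median 1.59), between 0.682 and 5.74 at 45 min (median 3.98) and between 2.16 and 4.28 at 24 h (median 3.03). Its groups overlapped, with the lowest 45 min mouse, replicate 6, far below the next at 2.68 CPM.

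The lists of related genes could be read only over transcripts with symbols, all of which the study had picked as changing, so the counts that follow are not independent evidence of a direction. Some list genes are members, and Fosb, Socs3, Cxcl1, Sele and Icam1 are among the 9 genes left out of the members by name. Over all transcripts tested 0.481% were higher and 0.246% lower at 45 min, and 4.44% and 3.24% at 24 h. Of 40 immediate early genes 20 had a symbol, and of the 19 tested 3 were higher at 45 min (Fos, Tiparp and Fosb, the last by 4.31 on the log2 scale) and Plk2 was lower, by a log2 fold change of -0.90. Their median was 0.54 at 45 min and -0.06 at 24 h, against 0.01 and 0.0033 over all transcripts tested. At 24 h Ier3, Ctgf and Mafk were higher, with log2 fold changes of 1.08, 0.88 and 0.40, and Egr1 and Nr4a1 lower, the latter at -1.29. Symbols were at hand for 7 of 16 growth arrest genes, all tested. The members Gadd45b, Gadd45g and Fas were higher at 45 min and Plk2 lower, while Gadd45a was lower at 24 h, at -1.02 (medians 0.54 and -0.06). In the integrated stress response list only 4 of 20 genes had a symbol and 3 were tested. The members Chac1 and Ddit4 were higher at 45 min. Mthfd2, an enzyme of mitochondrial folate metabolism, was higher at 24 h by 1.33 (medians of the list 1.29 and -0.28).

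For NF-kB, 9 of 25 genes had a symbol, all on the study's list of changed transcripts, so the share over all transcripts is not a like comparison. Of 8 tested, 7 were higher at 45 min, where 0.481% of all transcripts were, and none was lower (median 1.74). Beside Nfkbia and Fas these were the adhesion molecules Sele (2.23), Selp (2.27) and Icam1 (1.25) and the chemokines Cxcl1 (3.75) and Ccl2 (2.26), as log2 fold changes. At 24 h Sele, Selp, Cxcl1 and Ccl2 were still higher than at 0 min, at 1.43, 4.05, 2.04 and 3.71 (median of the list 1.06), while Nfkbia stood at -0.12. Among 23 feedback regulators of MAP kinases and growth factors 7 had a symbol and were tested. Trib1 and Socs3 (3.62) were higher at 45 min and Dusp6 (-0.73), Trib2 (-0.65) and Smad7 (-0.96) lower, so that the median was -0.65. Socs3 (2.34) and Dusp4 (1.27) were higher at 24 h, where the median was 0.02.

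Symbols were at hand for 11 of 26 glucocorticoid response genes, and the others were not on the study's list of changed transcripts. Of the 10 tested, the members Ddit4, Nfkbia and Klhl38 were higher at 45 min, as was Mt2 (2.08), which is no member (median 1.12). At 24 h Mt2 (3.50), Lcn2 (7.09) and Glul (0.63) were higher (median 0.05). Among 9 metallothionein and zinc genes 5 had a symbol and were tested. Mt2 was higher at 45 min (median of the list 1.09), and Mt2 and Hmox1 (2.93) at 24 h (median 0.81). Mt1 had 0.81 ± 0.48 at 24 h and did not pass (edgeR adjusted p = 0.40). Among 21 cardiac ion channel genes 8 had a symbol. Of the 8 transcripts tested Kcna5 alone was higher at 45 min (median 0.07). Kcna5 was there as a member of M[1] and the other channels were not members, so this is a description. At 24 h 4 of the 8 transcripts were lower, Hcn2 (-1.20), Hcn4 (-0.91), Abcc8 (-1.01) and Kcnj11 (-0.47), with a median of -0.57, and Kcna5 stood at -0.13 ± 0.16. Noct, the only 1 of 18 circadian genes with a symbol, had 0.93 at 45 min and -0.16 at 24 h and passed in neither.

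The 8 mice at 45 min differed in how far the members stood above 0 min. The median over the 33 members of log2(CPM + 0.5), less the 0 min mean, was 0.72 in replicate 4, from 0.97 to 1.26 in replicates 1, 2, 3 and 5, and 1.31, 1.59 and 1.42 in replicates 6, 7 and 8. Replicate 7 was among the 2 highest of its group in 20 of the 33 members, and replicate 4 among the 2 lowest in 21. Between the highest and the lowest mouse at 45 min the median member differed 3.31-fold, from 1.39-fold for Kcna5 to 17.5-fold for Fos among members with a median above 10 CPM. The spread on the log2 scale was larger at 45 min than at 0 min in 21 of 31 members, while 70.2% of all transcripts tested also had a larger spread at 45 min. At 24 h the medians were between 0.17 and 0.63 in 7 mice and -0.19 in replicate 8, which was among the 2 lowest in 21 members.

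**Figure D4:**
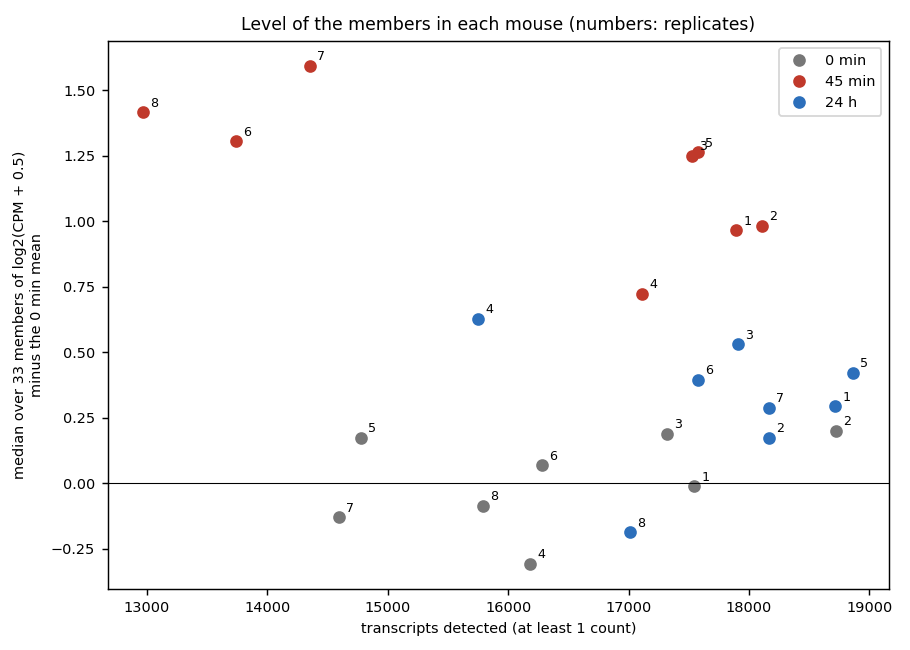
The median over the 33 members of log2(CPM + 0.5) minus the 0 min mean (y axis) against the number of transcripts detected (x axis) in each of 24 mice, with replicate numbers. The 45 min replicates 6, 7 and 8, with 12972 to 14353 transcripts detected, have the highest medians. The other 5 mice at 45 min lie above all mice at 0 min and 24 h. The 45 min and 0 min mice chose the members, so this is a description.

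The 3 mice with the highest medians at 45 min were those with the fewest transcripts detected. With transcripts detected entered as a covariate, 26 of the 31 members tested passed at 45 min against 0 min, in place of 23. The cause of the high medians was not tested. Without these 3 mice, 32 members entered the fit and all 32 had a log2 fold change above 0 at 45 min, with a median of 1.09. The test then called 14 higher, against 0.294% of all transcripts. Of these, 12 were among the 23 called with all mice: Gadd45b, Slc10a6, Rnd1, Map3k6, Chac1, Tiparp, Mylip, AI607873, Ifi205, Trib1, Kcna5 and Sema7a. AK030443 and AK031392 were gained, and 11 were lost, namely Fos, Gadd45g, Tmem252, Timp4, Adh1, Ddit4, Lnx1, Gatsl3, Nfkbia, Klhl38 and Fas. In 15 members the other 5 mice at 45 min lay above all 8 at 0 min, as in 0.548% of all transcripts. The 45 min and 0 min mice chose the members, so these counts are a description. At 24 h against 0 min, 12 members were higher in that fit in place of 7, with Tmem252, Rnd1, Timp4, Sema7a and Fas added, where 6.08% of all transcripts were higher. Egr1 was lower, as were 5.1% of all. At 24 h against 45 min, 12 members were lower in place of 17, against 2.8% of all transcripts, and the median log2 fold change was -0.56 in place of -0.91. The calls of Gadd45g, Rnd1, Gatsl3, Nts, Sema7a and Cebpb were lost there and that of AK031392 was gained.

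In the GENCODE annotation, 30 members were found by symbol. The 20 genes of M[1] spanned a median of 4210 bases from first to last exon, from 1246 for Mt1 to 37107 for Fas, and the 10 found in no module a median of 21047, from 8731 for Nts to 110466 for Lnx1. The other 1090 symbols of the study's list had a median span of 20569 bases, and all 21951 protein-coding genes one of 17403. The M[1] members were thus short genes beside both, and the members in no module were not. Exceptions in M[1] were Sema7a (22754 bases), Adh1 (29708) and Fas, and in no module Nts and Map3k6 (12112) among others.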

How the data were processed

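The left ventricle of 24 mice was sequenced from polyA RNA with a directional library kit. The authors deposited raw read counts per UCSC transcript, made with cutadapt 1.9.1, TopHat2 2.1.0 with Bowtie2 2.2.9 on mm10 and HTSeq 0.6.0. The mode and strand setting of the counting and the transcript release were not given in the sources used here, so overlapping and antisense transcripts cannot be told apart, and a value is that of 1 transcript of its gene. Symbols were taken from the study's list of 1209 transcripts.

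Transcripts were kept by filterByExpr of edgeR 4.0.16 (minimum of 10 counts, 15 in total) in R 4.3.3, scaled by TMM, and fitted with a quasi-likelihood model of time over all 24 samples. Benjamini-Hochberg adjustment covered 8940 transcripts, with a threshold of 0.05. CPM values carry TMM factors, except in the rule that chose the members and where library or column totals are named. The standard error (SE) is the log2 fold change divided by the square root of F. Alternatives used DESeq2 1.42.0 and limma 3.58.1, and the count of separated mice without 3 libraries was added after seeing the data. The fit was tested on simulated data.

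All members are named except 1, which is counted but not reported here. The lowest, median and highest mouse are given for the 24 with the largest ratio and for those past the threshold at 24 h. Other list genes are named where they passed. Promoters are those of the 6 highest members found, with Nfkbia and Mt1. Members, gene lists, motifs and tests were chosen with earlier results of these data known.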

Additional observations from a re-analysis of the deposited data

Results flagged for a closer look

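Within each time point, the gap of the highest or the lowest mouse to its neighbor was compared with the range of the 8 mice on the log2(CPM + 0.5) scale. Of 99 such groups (33 members at 3 time points), 6 held a mouse far from the others, and chance gives about 1 in 20 groups. At 0 min, Gadd45b was at 17.5 CPM in replicate 3, with the next mouse at 6.84, and Fos at 59.7 CPM in replicate 6, with the next at 20.2. Replicate 6 at 0 min was also the highest mouse of that group for Egr1, at 225 CPM.

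At 45 min, AK030443 was at 0.682 CPM and AI607873 at 3.07 CPM in replicate 6, with the next mice at 2.68 and 5.53. Trib1 was at 53.1 CPM in replicate 7, above the next at 40.0, and Klhl38 at 42.2 CPM in replicate 4, below the next at 75.8. Replicates 6 and 7 are among the 3 libraries with the fewest transcripts detected.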

How the results depend on the processing

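No called change of a member turned its direction under the alternatives run. With all samples 23, 8 and 17 members passed at 45 min against 0 min, at 24 h against 0 min and at 24 h against 45 min. Counts moved by over 1.5 times in these cases. At 45 min against 0 min, 14 passed at an adjusted p of 0.01, and 14 without the 3 samples at 45 min with the fewest transcripts detected. At 24 h against 0 min, 13 passed with transcripts detected entered as a covariate and 13 without those 3 samples. The members whose 45 min mice all lay above the 0 min mice were 4 by CPM of the column total, in place of 10. The cause was not tested. Leaving out each mouse in turn gave 18 to 26, 6 to 9 and 14 to 20 members called, and 26 to 36 members found by the rule. With all mice, the rule found 38 members on CPM with TMM factors. With 1 in place of 0.5 added to both means it found 28. The 20 M[1] members enter by module, so only those in no module could change. The fewest were found without 45 min replicate 5. Of the 13 in no module, AI607873, AK030443, BC034910, Ifi205, Mylip, Nts and Tiparp were then lost. With a replicate block 19, 6 and 14 members passed, Adh1 and Egr1 being lost at 24 h (edgeR adjusted p = 0.0994 and 0.057). Every mouse gave 1 library, so a shared number does not link the same mouse over time. The correlations of the 24 same-number pairs ran from -0.54 to 0.58. Of these pairs, 13 were over 0.1 and 3 were best with their own number. DESeq2 called 29, 10 and 19 members of 33, and limma-voom 21, 6 and 17. Counts of a few reads limit Mt1, Tmem252, Nts, AK031392 and BC034910, and 8 mice per group limit all.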
